A study of Mus musculus with 2 samples.

Results

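9 genes of the p53 damage response and of the apoptosis machinery were followed in sorted mouse intestinal epithelial cells, and were taken by their symbols from the 32285 genes of both deposited gene tables. The 9 members were Trp53, Cdkn1a, Mdm2, Ccng1, Phlda3, Trp53inp1, Bax, Bbc3 and Mcl1. Their mRNA was read as UMIs, molecular tags that count each captured transcript once, and their levels are given as UMIs per 1000000 UMIs of the same cells (CPM). Trp53 was highest in stem-like cells and Cdkn1a was lowest there, while Cdkn1a was highest in enteroendocrine-like and tuft-like cells. Of 8 members with enough UMIs to compare, 1 differed more than 1.3-fold between the libraries, where 18.5% of all 13880 genes did: Cdkn1a was higher in MG53-TG, with a log2 ratio of 0.53 that was 0.27 when the cell types were weighted alike in both libraries.

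The transcription factor p53, encoded by Trp53, is held at a low level in resting cells by MDM2, which marks it for degradation, and it builds up mainly through protein stability when DNA is damaged. It then binds a pair of short half-sites in the DNA near its target genes and raises their transcription, so that the mRNA of the targets is the usual readout of its activity. Cdkn1a encodes p21, which stops the cell cycle and is also known from cells that leave the cycle as they differentiate, and Bax and Bbc3 lead to death through the mitochondria, which Mcl1 opposes.

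The study compared 1 library of WT mice with 1 library of MG53-TG mice, which overexpress MG53 (TRIM72) globally, a protein known from membrane repair in muscle. Both groups had drunk 2.5% dextran sulfate sodium (DSS), an agent that injures the gut lining, and were sampled on day 7, and no undamaged control was analysed here. Live cells with EpCAM on their surface were sorted from dissociated crypts by the labels, while the study's text also describes them as negative for CD45, the product of Ptprc and a gate that would remove T cells, and were captured in droplets with a 3′ kit of 10x Genomics (version 3). The age and sex of the mice and the promoter of the transgene were not given in the sources used here, and although the study states a number of animals per group, nothing ties the cells of a library to single animals. With 1 library per group no test between the genotypes was possible, and every interval below is an exact 95% interval that covers counting error only.

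After filtering, 6963 WT cells and 4941 MG53-TG cells were kept, of which 6120 and 4606 were epithelial, with medians of 15666 and 18654 UMIs per cell. The libraries shared 46 barcode sequences among the barcodes with at least 500 UMIs. Trim72, the gene of MG53, stood at 0.579 CPM (63 UMIs) in the WT and 50.8 CPM (4636 UMIs) in the MG53-TG library. Clusters were named by marker genes into 10 epithelial types, and 1 shallow cluster of 261 WT and 97 MG53-TG cells stayed unnamed but was counted as epithelial. T cell-like cells made up 798 WT and 317 MG53-TG cells despite the sort, and their Epcam level was 71.0 and 58.5 CPM against 567.4 and 600.3 CPM in the epithelial cells. The summed level of 12 T cell markers within the epithelial cells was 55.5 CPM (WT) and 26.5 CPM (MG53-TG), and the part of this carry-over in the values below was not tested.

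All 9 members are protein-coding genes on the mouse GRCm38 assembly, the build the labels call mm10. Trp53 (ENSMUSG00000059552) lies on chromosome 11 from 69580359 to 69591873 on the plus strand, and Cdkn1a (ENSMUSG00000023067) on chromosome 17 from 29090976 to 29100727 on the plus strand. Mdm2 (ENSMUSG00000020184) lies on chromosome 10 from 117688875 to 117710758 and Ccng1 (ENSMUSG00000020326) on chromosome 11 from 40748552 to 40755311, both on the minus strand. Phlda3 (ENSMUSG00000041801) lies on chromosome 1 from 135766119 to 135769136, Trp53inp1 (ENSMUSG00000028211) on chromosome 4 from 11156431 to 11174379 and Mcl1 (ENSMUSG00000038612) on chromosome 3 from 95658788 to 95663176, all on the plus strand. Bax (ENSMUSG00000003873) lies on chromosome 7 from 45461697 to 45466898 on the minus strand, and Bbc3 (ENSMUSG00000002083) on the same chromosome from 16308393 to 16318205 on the plus strand.

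To show what sequence the p53 targets share in front of their start sites, the p53 response element, a pair of adjacent 10-base half-sites known by name as the p53 consensus, was searched in RefSeq promoters (GRCm38.p6, 250 bases before to 50 after each start). Promoters were held for 8 of the 9 members. The C and G of each half-site core were required, up to 3 mismatches were allowed in the 20 bases, and the consensus reads the same on both strands. 4 members had such a match, shown here with 20 bases on either side and the 20 matched bases in capitals.
Cdkn1a: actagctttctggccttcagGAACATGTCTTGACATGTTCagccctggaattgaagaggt
Ccng1: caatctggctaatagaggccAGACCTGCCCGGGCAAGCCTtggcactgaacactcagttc
Trp53: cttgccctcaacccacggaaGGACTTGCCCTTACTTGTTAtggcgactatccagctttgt
Bbc3: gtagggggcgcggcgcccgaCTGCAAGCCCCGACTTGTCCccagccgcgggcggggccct

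The Cdkn1a stretch is chr17:29090908-29090967 on the plus strand, and its match held 1 mismatch and began 51 bases before the first of 2 RefSeq start sites. The Ccng1 stretch is chr11:40755442-40755501 on the minus strand, and its match held 1 mismatch and began 195 bases before the start. The Trp53 stretch, chr11:69580264-69580323 on the plus strand, and the Bbc3 stretch, chr7:16309466-16309525 on the plus strand, held 3 mismatches each. Of all 32851 promoter windows 1.38% held a match with up to 3 mismatches and 0.067% one with up to 1 mismatch. A match is a description of the letters and not evidence of binding, and the windows of Mdm2, Phlda3, Bax and Mcl1 without one say nothing of sites elsewhere in these genes. Cdkn1a and Ccng1, the closest matches, had very different patterns across the cell types, as follows.

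Trp53, the transcription factor of the group, stood at 115.6 CPM (interval 108.0 to 123.5) in stem-like cells of the WT library and 142.6 CPM (132.0 to 153.8) in those of the MG53-TG library. In all pairs of values below the WT library comes first. Cycling stem-like cells had 108.6 and 124.0 CPM, cycling absorptive progenitor-like cells 73.2 and 83.6 CPM, and cycling secretory progenitor-like cells 59.8 and 66.1 CPM. Enteroendocrine-like cells had 46.7 and 72.9 CPM, the widest ratio between the libraries among the types. Tuft-like (24.1 and 27.8 CPM), enterocyte-like (22.0 and 21.9 CPM), absorptive progenitor-like (19.9 and 23.6 CPM) and goblet-like cells (21.2 and 20.5 CPM) lay close together, and Paneth-like cells were lowest with 13.9 and 11.4 CPM. Trp53 mRNA was thus highest in stem-like and cycling stem-like cells in both libraries, enteroendocrine-like cells lay below cycling secretory progenitor-like cells in WT and above them in MG53-TG, and the mean of the libraries was 10.2 times higher in stem-like than in Paneth-like cells. The libraries of neighbouring types overlapped between stem-like and cycling stem-like cells, between cycling secretory progenitor-like and enteroendocrine-like cells, and from enterocyte-like to absorptive progenitor-like to goblet-like cells. When each cell was thinned to 1354 UMIs, 14.4% of WT and 13.6% of MG53-TG stem-like cells held a Trp53 UMI, against 2.50% and 2.34% of enterocyte-like cells. T cell-like cells, which express the gene themselves, had 11.9% and 13.6%.

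Cdkn1a, which encodes the cell cycle inhibitor p21, ran the other way. It stood at 15.03 (interval 12.4 to 18.1) and 17.4 CPM (13.8 to 21.6) in stem-like cells, the lowest of the 10 types, and at 30.9 and 44.4 CPM in cycling stem-like cells. Cycling absorptive progenitor-like cells had 42.2 and 58.2 CPM, Paneth-like cells 43.9 and 50.01 CPM, and cycling secretory progenitor-like cells 76.8 and 106.6 CPM. Higher levels followed, with 165.1 and 225.2 CPM in enterocyte-like, 190.7 and 260.7 CPM in absorptive progenitor-like and 219.6 and 259.6 CPM in goblet-like cells. Tuft-like cells reached 484.7 and 467.8 CPM, and enteroendocrine-like cells 935.4 (896.1 to 976.1) and 895.7 CPM (855.2 to 937.5). The mean of the libraries was 56.5 times higher in enteroendocrine-like than in stem-like cells, a wider spread than that of 79.7% of 13880 genes. Goblet-like, absorptive progenitor-like and enterocyte-like cells overlapped as neighbours in this order, as did cycling absorptive progenitor-like, Paneth-like and cycling stem-like cells.

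Markers of other cells were raised in the 2 types with the most Cdkn1a. In tuft-like cells the 12 T cell markers summed to 607.5 and 269.2 CPM, of which Ptprc gave 213.5 and 260.3 CPM. Without Ptprc the WT sum was led by Gzma (187.1 and 3.98 CPM) and Ccl5 (131.2 and 2.73 CPM), while Cd3e stood at 12 and 0 UMIs. T cell-like cells themselves held 7.48 and 6.88 CPM of Cdkn1a, far below tuft-like cells. In enteroendocrine-like cells the 8 stromal markers summed to 614.5 and 472.6 CPM, of which Vim gave 600.4 and 459.5 CPM and Pecam1 14.1 and 13.1 CPM, and the other 6, Col1a1 and Dcn among them, had 0 UMIs in both libraries.

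Few stem-like cells held a Cdkn1a UMI at equal depth. After thinning to 1354 UMIs, 1.03% and 0.505% of stem-like cells held a Cdkn1a UMI, against 1.13% and 0.946% of T cell-like cells. These shares rest on 4 and 1 stem-like cells and give no order, whereas the stem-like level of 15.03 and 17.4 CPM lay above the T cell-like level of 7.48 (interval 4.43 to 11.8) and 6.88 CPM (2.97 to 13.6) in both libraries. The medians before thinning were 17650 and 21094 UMIs in stem-like and 2692 and 3420 UMIs in T cell-like cells, and the unthinned shares were 20.4% and 22.7% against 2.26% and 2.21%. Of enteroendocrine-like cells 49.3% and 49.7% held one after thinning, and in goblet-like cells 23.9% and 28.4%. Cdkn1a was also abundant among the barcodes of the WT library with at most 100 UMIs, at 137.8 CPM, against the 7.48 CPM of T cell-like cells in that library.

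**Figure D1:**
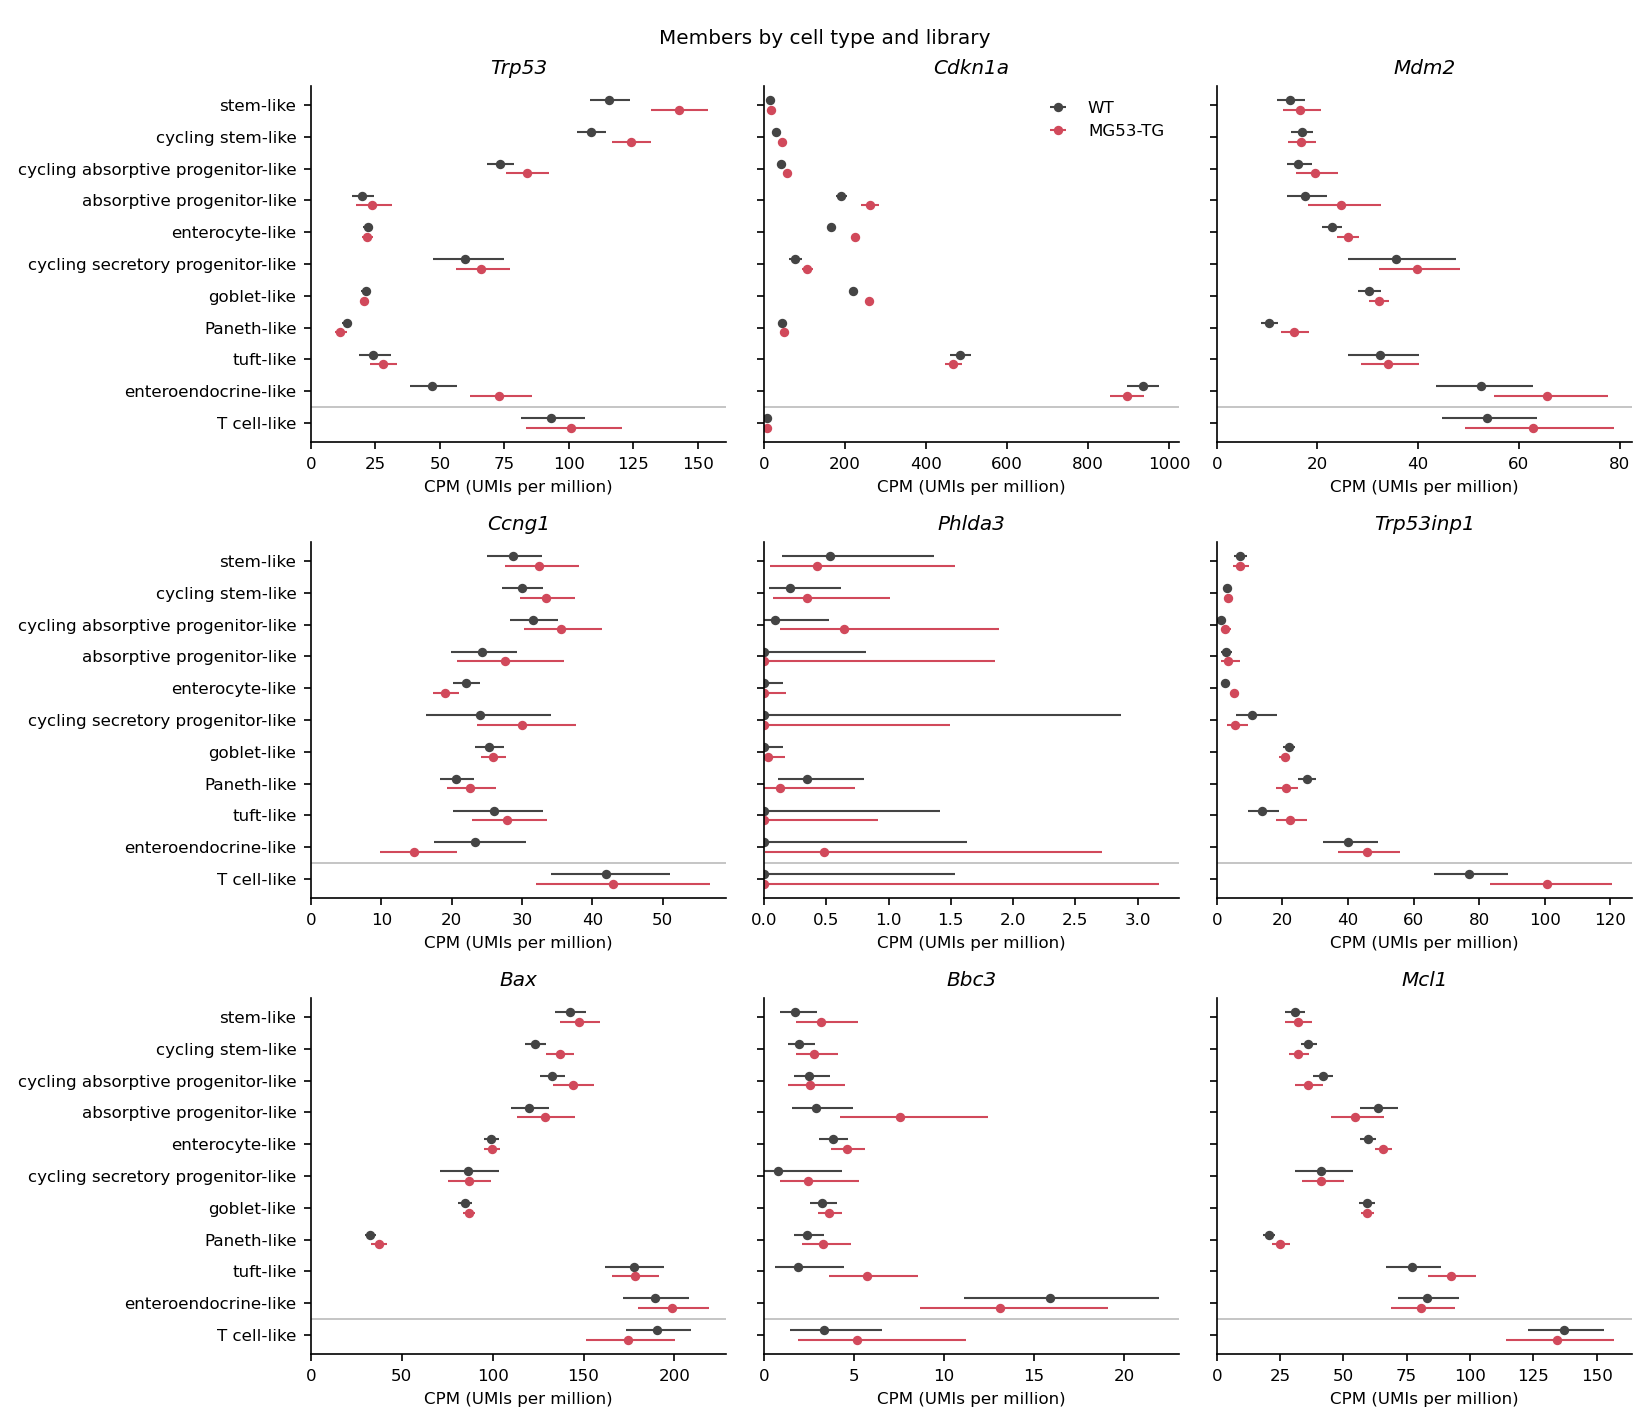
Level of each member in CPM (horizontal axis, starting at 0, on a scale of its own per gene) by cell type, with WT in grey and MG53-TG in red, and exact 95% Poisson intervals as bars. Trp53 is highest at the stem-like end (115.6 and 142.6 CPM), Cdkn1a at the enteroendocrine-like end (935.4 and 895.7 CPM), and Ccng1 is nearly level over the types.

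The 2 orders were not mirror images. Cdkn1a and Trp53 had a Pearson r of -0.44 over 20 points of log2(CPM + 1), the 10 types in each of 2 libraries, which share depth and dissociation within a library. Paneth-like cells were low in both genes, with 13.9 CPM of Trp53 and 43.9 CPM of Cdkn1a in WT. Enteroendocrine-like cells held both, with 46.7 CPM of Trp53 beside 935.4 CPM of Cdkn1a in WT. Within goblet-like cells, the cluster with the most Trp53 in WT (33.8 CPM, 456 cells) had the least Cdkn1a (106.0 CPM), and the cluster with the least Trp53 (7.48 CPM, 300 cells) had 376.2 CPM of Cdkn1a. The same held among 4 enterocyte-like clusters, from 30.2 CPM of Trp53 with 83.3 CPM of Cdkn1a to 10.6 CPM of Trp53 with 351.5 CPM of Cdkn1a in WT.

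**Figure D2:**
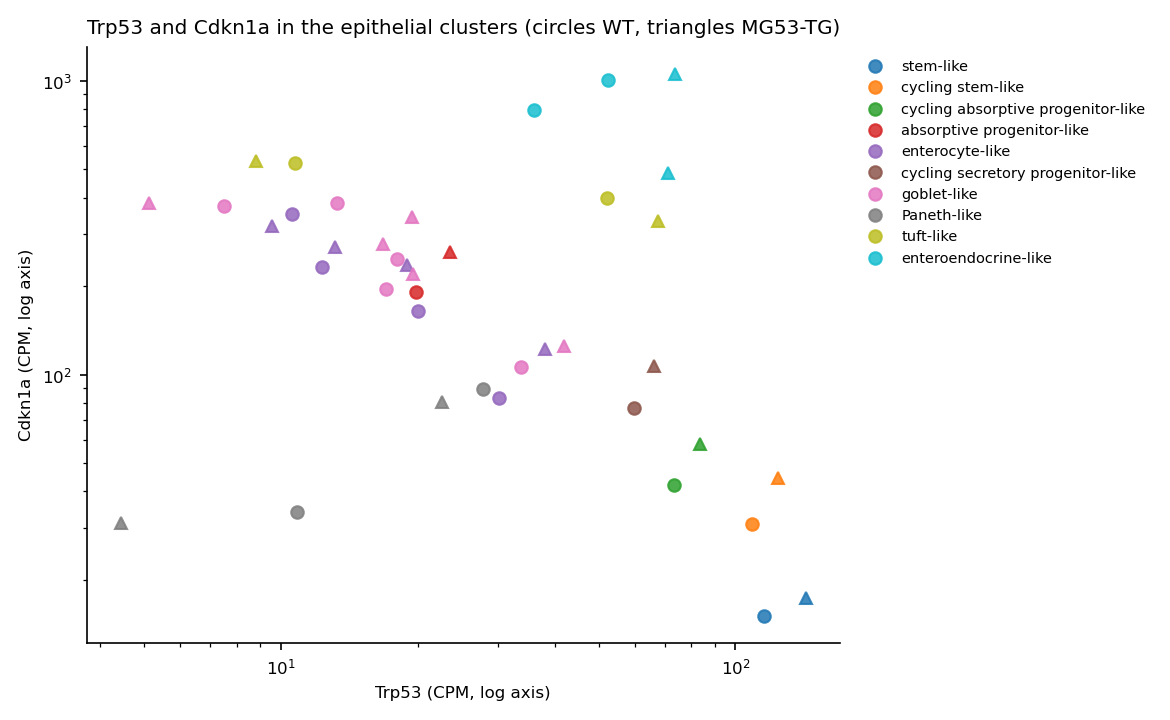
Cdkn1a against Trp53 in the 20 named epithelial clusters, both in CPM on log axes, with circles for WT, triangles for MG53-TG and a colour per cell type. Most clusters run from stem-like cells at the lower right (115.6 CPM of Trp53, 15.03 CPM of Cdkn1a in WT) to goblet-like and enterocyte-like clusters and a tuft-like cluster at the upper left. Paneth-like clusters lie below that band and enteroendocrine-like clusters above it. Another tuft-like cluster lies towards the enteroendocrine-like clusters, with 52.3 CPM of Trp53 and 399.3 CPM of Cdkn1a in WT.

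Mdm2 and Ccng1 are targets that feed back on p53, Mdm2 as its ubiquitin ligase and Ccng1, cyclin G1, through a phosphatase that acts on MDM2. Among the named types Mdm2 was highest in enteroendocrine-like cells, with 52.5 and 65.6 CPM (the unnamed cluster had 65.9 and 80.4 CPM), followed by cycling secretory progenitor-like (35.7 and 39.7 CPM), tuft-like (32.5 and 34.1 CPM) and goblet-like cells (30.3 and 32.2 CPM). It was low in stem-like (14.5 and 16.6 CPM) and lowest in Paneth-like cells (10.4 and 15.3 CPM), which made a 4.59-fold range. Ccng1 ran from 31.6 and 35.6 CPM in cycling absorptive progenitor-like cells to 23.4 and 14.6 CPM in enteroendocrine-like cells, a 1.77-fold range by the mean of the libraries. In WT alone Paneth-like cells were lowest with 20.6 CPM. Only 0.0648% of the 13880 genes had as narrow a range, where the median gene had 7.03-fold. The narrow range of Ccng1 stood beside the wide range of Cdkn1a, and both promoters held a match of 1 mismatch. A gene with few UMIs also gains range from counting error, so ranges of low genes are upper readings.

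Phlda3, which encodes an inhibitor of AKT signalling, was almost absent from these cells. Its epithelial sum was 13 and 11 UMIs, or 0.123 and 0.122 CPM, and it was left out of the comparison of the libraries for having under 50 UMIs. Of the WT UMIs 5 were in Paneth-like and 4 in stem-like cells. Trp53inp1, which encodes a protein of stress-induced autophagy and death, was highest in enteroendocrine-like cells (40.1 and 45.7 CPM). Paneth-like (27.5 and 21.2 CPM), goblet-like (22.0 and 20.7 CPM) and tuft-like cells (13.8 and 22.4 CPM) followed and overlapped. It was low in enterocyte-like (2.52 and 5.40 CPM) and lowest in cycling absorptive progenitor-like cells (1.40 and 2.37 CPM). Cycling secretory progenitor-like cells had 10.9 and 5.67 CPM from 14 UMIs in each library, and the interval of their log2 ratio (-2.12 to 0.24) spanned 0. T cell-like cells held 76.9 and 100.7 CPM, more than any epithelial type.

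Of the apoptosis genes, Bax, which forms pores in the mitochondrial membrane, had 189.1 and 198.9 CPM in enteroendocrine-like and 177.5 and 178.2 CPM in tuft-like cells. Stem-like cells came next with 142.6 and 147.7 CPM, enterocyte-like cells had 99.2 and 99.6 CPM, and Paneth-like cells were lowest with 32.7 and 37.2 CPM. Bbc3, which encodes PUMA, a BH3-only protein that sets BAX free, was sparse. It reached 15.9 CPM (36 UMIs, interval 11.1 to 22.0) and 13.1 CPM (27 UMIs, 8.65 to 19.1) in enteroendocrine-like cells, and its other named types lay between 0.776 and 7.54 CPM. The unnamed cluster had 8.91 and 16.1 CPM of Bbc3, from 10 and 8 UMIs. Mcl1, the guard that binds BH3-only proteins, was highest in enteroendocrine-like cells in WT (82.9 CPM) and in tuft-like cells in MG53-TG (92.5 CPM), and lowest in Paneth-like cells (20.6 and 25.1 CPM). Its level in the unnamed shallow cluster, 211.2 and 281.5 CPM, exceeded that of every named type.

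A maximum in enteroendocrine-like cells was common among all genes. Of the 8 members with at least 50 UMIs, 5 had their highest level there in both libraries, where 35.3% of all 13880 genes were highest in that type by the mean of the libraries, and 56.1% were lowest in Paneth-like cells. Of the 37 p53 targets with at least 50 UMIs from the list fixed for this report, 37.8% were highest in enteroendocrine-like and 54.1% lowest in Paneth-like cells. Enteroendocrine-like cells were also shallow, with medians of 7152 and 9930 UMIs, so the order was read again in UMIs per cell. Cdkn1a remained highest in enteroendocrine-like cells on that scale, with 7.42 and 10.2 UMIs per cell, and lowest in stem-like cells, with 0.291 and 0.414 UMIs per cell. Trp53 was highest in cycling stem-like cells (3.02 and 4.09 UMIs per cell) and then stem-like cells (2.24 and 3.39). The maximum of Mdm2 moved to cycling secretory progenitor-like cells (0.852 and 0.990 UMIs per cell), that of Bax to cycling stem-like cells (3.43 and 4.52) and that of Trp53inp1 to Paneth-like cells (1.003 and 0.664). Ccng1 was highest in cycling stem-like cells (0.833 and 1.10). Absorptive progenitor-like cells became highest for Bbc3 in MG53-TG (0.161 against 0.149 in enteroendocrine-like cells) and for Mcl1 in WT (1.10). Cells of a type that hold less total RNA and cells that hold more of a given mRNA cannot be told apart from CPM alone.

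To ask whether overexpression of MG53 went with a different level of the members, UMIs were summed over all epithelial cells of each library. Cdkn1a stood at 145.3 CPM (15412 UMIs) and 209.7 CPM (18856 UMIs), a log2 ratio of 0.53 (interval 0.50 to 0.56). Bbc3 had 3.16 and 4.09 CPM (log2 ratio 0.37, interval 0.16 to 0.59) and Mdm2 22.0 and 27.5 CPM (0.32, interval 0.24 to 0.41). Trp53inp1 had 11.9 and 13.7 CPM (0.21), Mcl1 49.7 and 55.4 CPM (0.16), Bax 100.4 and 104.0 CPM (0.05) and Ccng1 25.3 and 25.5 CPM (0.01, interval -0.07 to 0.09). Trp53 was lower in MG53-TG by a small amount, with 44.9 and 42.5 CPM (log2 ratio -0.08, interval -0.14 to -0.02), and this ratio ran from -0.28 with thinning to 0.18 with the WT cluster shares. Of the 8 members, 1 passed 1.3-fold, and it was higher in MG53-TG. Bbc3 lay just inside that fold and passed it under some of the other settings given at the end. Among all 13880 genes 18.5% passed that fold, 13.5% higher and 5.00% lower in MG53-TG, so 1 of 8 is no more than the background. The median log2 ratio of all genes was 0.09, and 7 of the 8 members were above 0 where 65.1% of all genes were.

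The libraries differed in cell make-up, and holding it equal put 5 of the 8 members outside the interval of their sum. That interval covers the counting error of the sum alone, and the reweighted values have none of their own. Goblet-like cells gave 22.2% and 35.7% of the epithelial UMIs, and tuft-like cells 2.46% and 4.47%. Cycling absorptive progenitor-like cells gave 10.1% and 5.16%, cycling stem-like cells 13.3% and 9.61%, and stem-like cells 7.09% and 5.24%. When the MG53-TG level of each type was weighted by the UMI share of that type in WT, a setting chosen after seeing the data, the log2 ratio of Cdkn1a was 0.27 in place of 0.53. With the shares of the 20 clusters it was 0.18. The log2 ratio of Trp53 turned from -0.08 to 0.16 with the type shares and 0.18 with the cluster shares. That of Mdm2 was 0.19 and 0.13. Those of Bbc3 (0.35 and 0.29), Bax (0.07 and 0.08) and Ccng1 (0.05 and 0.06) stayed within the counting error of the sums, and those of Trp53inp1 (-0.01 in both) and Mcl1 (0.03 and -0.03) were close to 0. With the cell make-up held in this way 0 of 8 members passed 1.3-fold, where 10.7% of all genes did with the type shares and 10.0% with the cluster shares.

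**Figure D3:**
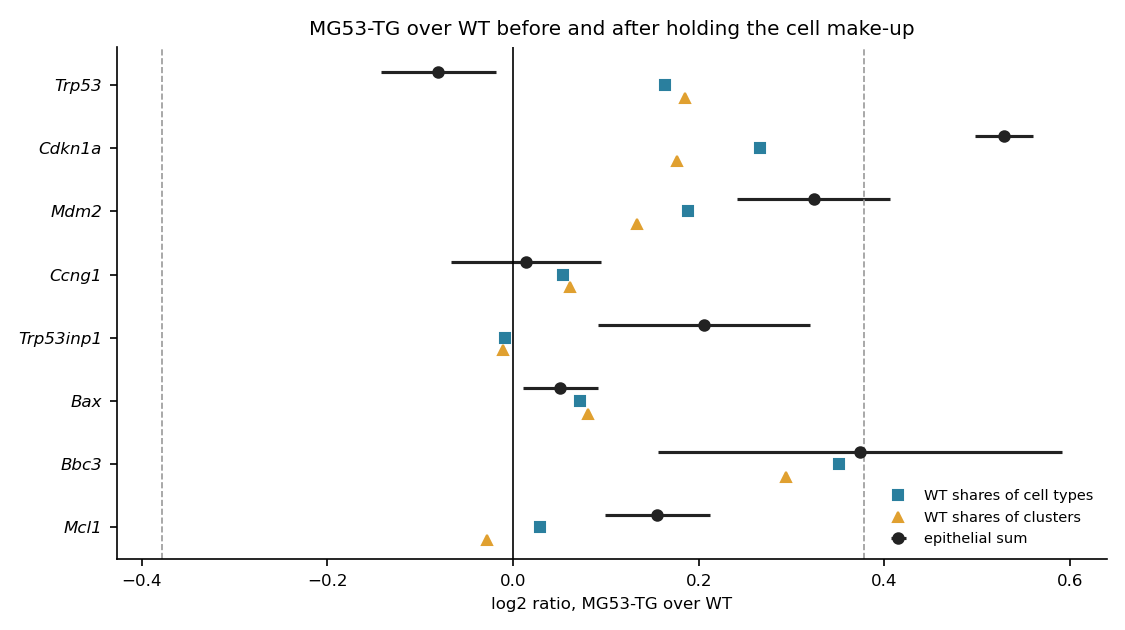
Log2 ratio of MG53-TG over WT for the 8 members with at least 50 UMIs, from the epithelial sums (black, with exact 95% intervals) and with the WT shares of the cell types (blue squares) or of the clusters (yellow triangles). Dashed lines mark 1.3-fold. Cdkn1a lies beyond the line in the sum at 0.53 and inside it at 0.27 and 0.18, and Trp53 changes side from -0.08 to 0.16 and 0.18.

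Within the cell types, Cdkn1a was higher in MG53-TG in 8 of 10 types, and 19.4% of all genes were higher in at least as many types. The widest ratio was that of cycling stem-like cells (log2 ratio 0.52, interval 0.32 to 0.72), and enterocyte-like cells had 0.45 (0.39 to 0.51). In enteroendocrine-like (-0.06, interval -0.15 to 0.03) and tuft-like cells (-0.05, interval -0.15 to 0.05), where Cdkn1a was most abundant, the intervals spanned 0. The enteroendocrine-like cells held a cluster with 1010 and 1055 CPM and one with 793.4 and 486.1 CPM. Over the 20 clusters it was higher in 14, where 19.4% of all genes were higher in at least as many, with a median log2 ratio of 0.17 beside 0.04 for all genes. In Paneth-like cells the sum and the clusters differed in direction. The sum was higher in MG53-TG (43.9 and 50.01 CPM), but both Paneth-like clusters were lower there, at 33.9 and 31.1 CPM and at 89.3 and 80.5 CPM, and most Paneth-like cells were in the first of them in WT and in the second in MG53-TG. All genes in Paneth-like cells had a median log2 ratio of 0.26, above the 0.19 of Cdkn1a there.

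Trp53 was higher in MG53-TG in 7 of 10 types, where 33.1% of all genes were higher in at least as many, among them stem-like cells (log2 ratio 0.30, interval 0.16 to 0.45), cycling stem-like cells (0.19, interval 0.08 to 0.30) and enteroendocrine-like cells (0.64, interval 0.27 to 1.02). The sums of Paneth-like (-0.29, interval -0.67 to 0.08), goblet-like (-0.04, interval -0.21 to 0.13) and enterocyte-like cells (-0.01, interval -0.19 to 0.17) showed no such difference beyond counting error. Both Paneth-like clusters were lower in MG53-TG, at 10.83 and 4.45 CPM and at 27.85 and 22.62 CPM, and no interval was computed for clusters. Bax was higher in 10 of 10 types, as were 2.61% of all genes, but by small amounts, with log2 ratios from 0.01 to 0.19. The highest was that of Paneth-like cells, whose clusters had 26.4 and 21.8 CPM and 61.4 and 62.0 CPM. Over the clusters it was higher in 14 of 20, where 19.4% of all genes were higher in at least as many. Mdm2 was higher in 9 of 10 types with a median of 0.19, and 8.97% of genes were higher in at least as many. Trp53inp1 was not uniform, with a log2 ratio of 1.10 in enterocyte-like cells (60 and 114 UMIs, interval 0.64 to 1.57) and -0.38 in Paneth-like cells (400 and 162 UMIs, interval -0.65 to -0.11). Differences between types in these ratios were not tested.

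The other genes of the pathway were taken from lists fixed for this report. Of the 37 p53 targets with at least 50 UMIs, 7 were past 1.3-fold higher in MG53-TG and 0 lower, beside 13.5% and 5.00% of all genes, with a median log2 ratio of 0.11 beside 0.09. With equal weight of the types 4 of them were past the fold. Gdf15, a stress cytokine of the TGF-β family, had 1.24 and 3.05 CPM (log2 ratio 1.29) and was higher in 3 of 3 types with enough UMIs. Plk2, a polo-like kinase, had 4.44 and 7.25 CPM (0.71) but was higher in 0 of 2 types with enough UMIs. Those furthest the other way were Tigar (-0.34), Ephx1 (-0.22) and Sfn (-0.21), none past the fold. Of 15 regulators of p53, 0 passed the fold in either direction, Mdm2 (0.32), Mdm4 (0.24) and Rchy1 (0.21) being the highest and Chek2 (-0.18), Atr (-0.18) and Trp53 (-0.08) the lowest.

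Of 14 BCL2 family genes with at least 50 UMIs, 3 were past the fold and higher in MG53-TG, beside 13.5% of all genes, and 1 with equal weight of the types or the median of ratios. They were Bik (0.839 and 1.20 CPM, log2 ratio 0.52), Bmf (2.18 and 2.96 CPM, 0.44) and Bad (73.2 and 95.4 CPM, 0.38). Within types Bik was higher in 0 of 1, Bmf in 4 of 4 and Bad in 7 of 10 with enough UMIs. Bcl2l11 (-0.12), Bid (-0.07) and Bok (-0.07) were the lowest, and the median was 0.07. Of 19 death receptors, caspases and their inhibitors, 1 passed the fold, lower in MG53-TG as were 5.00% of all genes. It was Birc5, which encodes survivin and is known to be made in dividing cells, with 96.8 and 72.2 CPM (-0.42). It was higher in MG53-TG in 3 of 8 types. Birc5 was highest in cycling secretory progenitor-like cells (507.5 CPM by the mean of the libraries), which gave 1.22% and 2.74% of the UMIs. Cycling stem-like cells gave 13.3% and 9.61%, and cycling absorptive progenitor-like cells 10.1% and 5.16%. The part of these shares in the ratio was not tested. Birc2 (0.32) and Fas (0.30) were the highest of this list, and Fadd (-0.16) and Htra2 (-0.09) followed Birc5 at the lower end. A list of 18 immediate early and heat shock genes, kept as a measure of handling, had 5 of 16 past the fold and higher in MG53-TG, beside 13.5% of all genes, with a median of 0.29. Hspa1b (0.77), Fosb (0.76) and Fos (0.72) were the highest and Hspb1 (-0.27) and Hspa8 (-0.18) the lowest. The part of handling in the values of the members was not tested.

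To ask whether the members went together cell by cell, cells with at least 1 Cdkn1a UMI were compared with cells of the same type and library without one. In 17 pairs of type and library with at least 20 cells on each side, the members were set against the median of all genes. Mdm2 lay above that median in 9 of 17 pairs, Ccng1 in 9 of 16, Bax in 11 of 17 and Mcl1 in 10 of 17, and their median distances from it on the log2 scale were 0.00, 0.03, 0.05 and 0.03. Trp53inp1 could be read in 10 pairs and Bbc3 in 4, with 5 and 2 above. Single pairs lay further out, such as Trp53inp1 in MG53-TG enterocyte-like (log2 ratio -1.19) and enteroendocrine-like cells (-1.36). Trp53 lay above in 5 of 17, with a median distance of -0.31. In WT cycling stem-like cells it stood at 93.7 CPM with and 121.4 CPM without a Cdkn1a UMI, and in MG53-TG at 97.6 and 151.1 CPM. In stem-like cells it was level, with 114.2 and 116.1 CPM in WT, and in WT Paneth-like cells it was higher with a Cdkn1a UMI, at 16.4 against 9.47 CPM (log2 ratio 0.79, interval 0.32 to 1.28). In MG53-TG Paneth-like cells Trp53 stood at 10.2 against 14.1 CPM (-0.47), with an interval that spanned 0 (-1.12 to 0.20). The median of all genes between these cells was 0.21 in WT and -0.28 in MG53-TG.

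Compared within clusters rather than types, a setting chosen after seeing the data, Trp53 lay above the median of all genes in 9 of 19 pairs with a median distance of -0.03, and Bax in 19 of 25 with 0.09. The pair furthest from 0, MG53-TG tuft-like cells with 21.7 CPM with and 127.2 CPM without a Cdkn1a UMI, rested on 20 cells without one. That type held a cluster of 92 cells with 67.6 CPM of Trp53 and a cluster of 193 cells with 8.82 CPM. Cells with a Cdkn1a UMI were also deeper, for instance 17843 against 7786 UMIs in WT enterocyte-like cells. With every cell thinned to 1354 UMIs the median distance was -0.38 for Bax (above in 2 of 7 pairs), 0.35 for Mcl1 (3 of 4), 0.30 for Mdm2 (2 of 3) and -0.30 for Ccng1 (1 of 2), and Trp53 could be read in 1 pair (-0.44). Thinning also left fewer pairs and fewer cells with a Cdkn1a UMI.

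**Figure D4:**
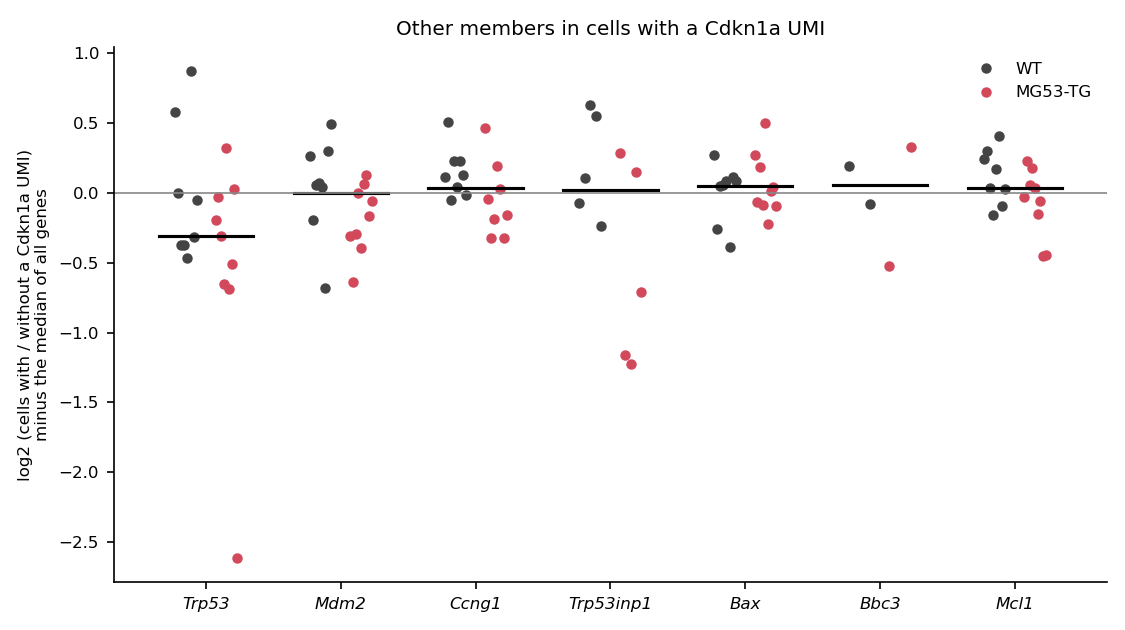
Log2 ratio of each member between cells with and without a Cdkn1a UMI, less the median of all genes, for each type in WT (grey) and MG53-TG (red), with the median as a black bar. The bars of Mdm2, Ccng1, Bax and Mcl1 lie between 0.00 and 0.05, and that of Trp53 at -0.31.

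The genes closest to each member over the 20 points of type and library were sought among 7852 genes with a mean of at least 10 CPM, as a description only. Trp53 was closest to Cdk4 (r = 0.98), G3bp1 (0.98) and Set (0.98), and Cdkn1a to Ndst1 (0.98), Ccdc68 (0.97) and Arhgef2 (0.97). Mdm2 was closest to Arnt (0.96), Mindy2 (0.96) and Lats1 (0.96), Bax to Timm13 (0.98), Lsm1 (0.97) and Naxd (0.97), and Mcl1 to Parp4 (0.98), Casz1 (0.96) and Stxbp2 (0.96). Trp53inp1 was closest to Ccpg1 (0.91), Btg2 (0.88) and Gadd45g (0.87), and Bbc3 to Gch1 (0.89), Mast3 (0.87) and Plekha1 (0.86). The flat Ccng1 had weaker neighbours in Mapkapk3 (0.79), Abhd11 (0.78) and Nop10 (0.77), and the sparse Phlda3 had Ntmt1 (0.77), Olfm4 (0.71) and Ifitm3 (0.71). Among the members themselves, Cdkn1a was closest to Mcl1 (0.89) and Mdm2 (0.81) and furthest from Ccng1 (-0.54). The points share 2 libraries and are not independent.

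Barcodes with a high share of mitochondrial UMIs, which are often damaged cells, were kept apart from the values above and read per 1000000 non-mitochondrial UMIs. From barcodes with at most 5% mitochondrial UMIs to those with 25% to 50%, Mdm2 went from 23.6 to 72.1 (WT) and from 28.9 to 86.9 (MG53-TG). Bbc3 went from 3.13 to 7.03 and from 3.91 to 9.96, and Mcl1 from 50.3 to 131.2 and from 53.5 to 136.2. Cdkn1a went from 143.0 to 235.6 and from 213.2 to 261.8. Above 50% it stood at 207.8 in WT and at 190.8 (interval 175.1 to 207.5) in MG53-TG, the latter below the 213.2 of the lowest share. The other members, Phlda3 aside, were lower in the barcodes with 25% to 50%, Bax at 37.7 against 104.2 and 29.2 against 109.8, and Trp53 at 21.7 against 47.8 and 16.5 against 46.0. Ccng1 (18.8 against 26.7 in WT) and Trp53inp1 (11.1 against 18.7 in WT) were lower too. All 4 directions up and all 4 down were the same in both libraries, and of 12597 genes 47.1% were higher and 46.35% lower in both, with medians of 0.06 in WT and -0.03 in MG53-TG on the log2 scale. The cell types of these barcodes were not assigned, and the part of cell make-up was not tested.

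**Figure D5:**
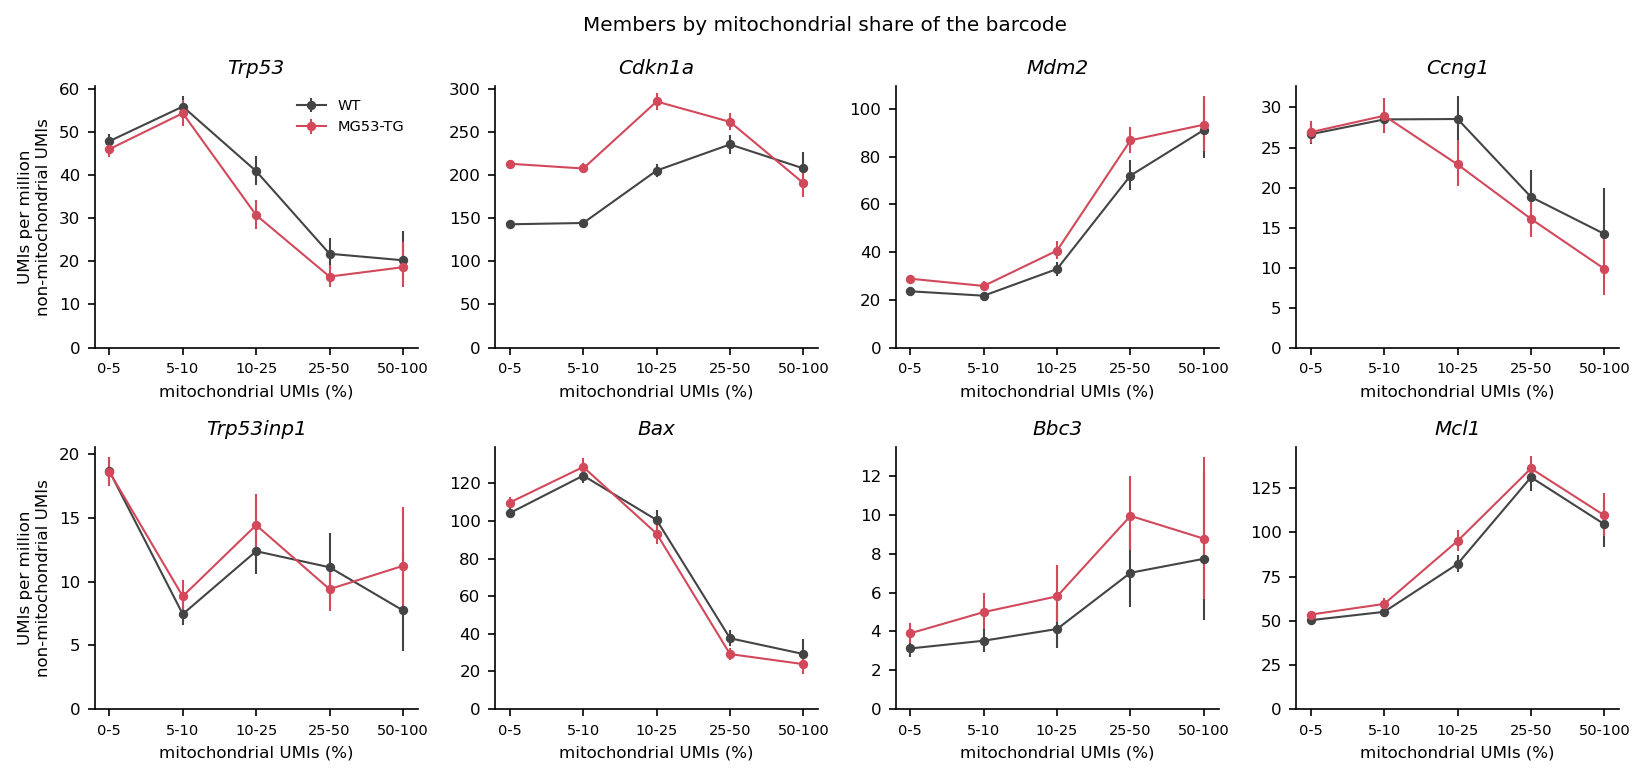
Level of 8 members per 1000000 non-mitochondrial UMIs (vertical axis from 0, a scale per gene) by the mitochondrial share of the barcode, in WT (grey) and MG53-TG (red), with exact 95% Poisson intervals. Mdm2 reaches 72.1 and 86.9 at 25% to 50%, while Bax is at 37.7 and 29.2.

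The WT table also held 1434842 barcodes with 1 to 100 UMIs, taken as empty droplets with free RNA. Trp53inp1 stood at 40.8 CPM there against 11.9 CPM in the WT epithelial cells, Mcl1 at 74.3 against 49.7 CPM, Mdm2 at 30.5 against 22.0 CPM and Bbc3 at 4.62 against 3.16 CPM. The interval of Bbc3 (3.07 to 6.68) held its cell level, as did that of Cdkn1a (128.6 to 147.5 against 145.3 CPM). Bax (83.8 against 100.4 CPM), Trp53 (31.9 against 44.9 CPM) and Ccng1 (18.0 against 25.3 CPM) were lower in free RNA than in cells. The MG53-TG table starts at 500 UMIs, so its free RNA was not analysed here.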

How the data were processed

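Single-cell RNA-seq of 1 WT and 1 MG53-TG library was analysed. The deposited values are raw UMI counts per gene and barcode, made by the authors with Cell Ranger on mm10 (file headers name version 4 for WT and 6.0.1 for MG53-TG), and the WT table holds all barcodes while the MG53-TG table starts at 500 UMIs. Seurat is named in the submitters' notes. Here barcodes were kept from 1354 UMIs and 200 genes upward and up to 25% of mitochondrial UMIs. Scrublet called under 0.5% of the cells on its own threshold (1 WT and 2 MG53-TG), so it had not worked, and the highest-scoring 438 WT and 212 MG53-TG cells were removed at a rate of 0.8% per 1000 cells. Both libraries were clustered together with scanpy 1.11.5 and leidenalg 0.10.2 (1983 variable genes, members, list genes and Trim72 left out, 30 components, 15 neighbours, resolution 1) and gave 26 clusters. A cluster took the type with the highest share of its markers present in at least 10% of cells at 1.5-fold, with at least 3 markers, or the type with more markers among its top 10 genes. An exception was a cluster far shallower than its library with no marker of its epithelial type among its top 10 genes, which stayed unnamed. The unnamed cluster had 13 markers of a type passing and was left unnamed by this exception. Counts were summed per type and library. Ratios carry exact conditional binomial and levels exact Poisson intervals (scipy 1.17.1), tested on simulated data, and UMIs of 1 library are not replicates. Genes needed 50 UMIs over both libraries. The members and lists were chosen with earlier results of these data known. Named genes were all members, up to 3 genes per direction of each list by the size of the log2 ratio, and the 3 genes closest to each member, and 1 gene that this rule names is not reported here. Coordinates are from GENCODE vM21, which matched 32235 of 32285 gene IDs, and promoters from RefSeq.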

Additional observations from a re-analysis of the deposited data

Results flagged for a closer look

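Trp53inp1 stands out because its ratio of MG53-TG over WT pointed in opposite directions in 2 cell types, each beyond counting error, with a log2 ratio of -0.38 in Paneth-like and 1.10 in enterocyte-like cells. The difference between the types was not tested, and enterocyte-like cells had 60 UMIs of the gene in WT and 114 in MG53-TG. The other values come from barcodes, cells or a cluster outside the named epithelial types in which the MG53-TG value exceeded the WT value beyond counting error. In barcodes with 25% to 50% mitochondrial UMIs, Cdkn1a stood at 261.8 per 1000000 non-mitochondrial UMIs in MG53-TG against 235.6 in WT, and Mdm2 at 86.9 against 72.1. The gap of Cdkn1a was wider in barcodes with at most 5% (213.2 against 143.0) and had the other sign above 50% (190.8 against 207.8). Bax was lower in the MG53-TG barcodes with 25% to 50%, at 29.2 (interval 26.1 to 32.6) against 37.7 (33.4 to 42.3). In T cell-like cells, Trp53inp1 stood at 100.7 CPM in MG53-TG against 76.9 CPM in WT. In the unnamed shallow cluster, Mcl1 stood at 281.5 CPM in MG53-TG against 211.2 CPM in WT. Each of these compares 1 library with 1 library.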

How the results depend on the processing

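The median log2 ratio of the 8 members, 0.18 in the epithelial sum, ran from 0.0906 with the median of ratios to 0.195 with thinning over 12 alternatives. The number of members above 0 went from 5 to 8 over them. The log2 ratio of Cdkn1a was positive under all 12 but inside 1.3-fold with the mean of single-cell CPM (0.31), equal weight of the types (0.29), thinning to the UMI minimum (0.24) and both sets of WT shares, which were chosen after seeing the data, as was the split within clusters. Trp53 was further below 0 with thinning (-0.28), the median of ratios (-0.17) and a mitochondrial limit of 50% (-0.17), and turned positive with equal weight (0.16) and with the WT type (0.16) and cluster shares (0.18). Bax turned negative with the median of ratios (-0.0391), thinning (-0.0408) and a mitochondrial limit of 50% (-0.0393). Mcl1 did so with the WT cluster shares (-0.0283). Trp53inp1 was past 1.3-fold with thinning (0.50) and the mean of single-cell CPM (0.38), and negative with both WT shares (-0.00913 and -0.0106). Ccng1 reached 0.146 with thinning. It was negative with the median of ratios (-0.0762), the mean of single-cell CPM (-0.0184), a mitochondrial limit of 50% (-0.0336) and doublets kept (-0.00748). The list genes past 1.3-fold numbered 16 in all, against 5 at 1.5-fold and 10 with equal weight of the types. The members with a positive median distance in cells with a Cdkn1a UMI numbered 6, against 3 after thinning and 3 within clusters. The highest type agreed between libraries for 7 members, and 6 to 7 under other clusterings. The causes of these shifts were not tested. No paired analysis was possible because each group had 1 library. Depth left Phlda3 and most Bbc3 values by type undecided.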
